A study of Mus musculus with 3 samples.

Results

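Genes of iron handling and ferroptosis, 10 in all, were followed across the cell classes of injured mouse kidneys: Fth1 and Ftl1 (ferritin heavy and light chains), Tfrc (transferrin receptor), Slc40a1 (ferroportin), Ncoa4, Hmox1, Slc11a1, Gpx4, Acsl4 and Aifm2. They were chosen by name and are 10 of the 27998 genes counted. Droplet single-cell RNA sequencing was available for 3 libraries of kidney cells, 1 per mouse: 2 Aoah-/- mice (replicates 2 and 3) and 1 wild-type (WT) mouse (replicate 3). All mice were 6 to 8 weeks old and were studied on day 14 after folic acid (FA), which injures the tubules, and no mouse without FA was analysed here. The Aoah-/- mice lack a working acyloxyacyl hydrolase, an enzyme that removes fatty acyl chains from bacterial lipopolysaccharide, in every cell of the body. The mutation had been backcrossed to C57/BL6J, and WT littermates came from heterozygous breeders. Kidneys were perfused and digested, and erythrocytes were lysed, before the cells were captured.

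Iron enters most cells bound to transferrin through the transferrin receptor and leaves them through ferroportin, the only known exporter of iron from mammalian cells. Iron not in use is stored in the ferritin shell, whose heavy chain oxidises it and whose light chain helps to lay down the mineral core, and NCOA4 carries ferritin to the lysosome to set the iron free. Haem oxygenase-1, the product of Hmox1, breaks down haem and frees its iron, and NRAMP1, the product of Slc11a1, moves divalent metals out of the phagosomes of macrophages and granulocytes. Ferroptosis is a form of cell death that follows iron-dependent peroxidation of membrane phospholipids. ACSL4 supplies the polyunsaturated fatty acids that are peroxidised, GPX4 reduces the peroxides with glutathione, and FSP1, the product of Aifm2, protects membranes by a separate route through coenzyme Q. The proximal tubule (PT) reclaims filtered iron and is a site of ferroptosis in acute kidney injury.

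Part of this control acts on the transcript. Iron regulatory proteins bind a hairpin, the iron-responsive element (IRE), when iron is scarce. In a 5′ untranslated region (UTR) the bound protein blocks translation, and in the 3′ UTR of the transferrin receptor it protects the transcript from decay, so a ferritin transcript level is not a ferritin protein level. A search for the hairpin (a bulged C, 5 paired bases of the upper stem, at least 3 of the 5 pairs of the lower stem and the loop CAGTGN, transcript strand only, G-T pairs counted) in the UTRs of 21877 protein-coding genes found a match in the 5′ UTR of 9 genes (0.0411%) and in the 3′ UTR of 36 (0.165%). Among the 10 genes 4 had a match within a single exon: Fth1, Ftl1 and Slc40a1 in the 5′ UTR, and Tfrc with 4 matches in the 3′ UTR. Matches across an exon junction were left out here but not from the counts over all genes. The matches of these 4 genes are printed because hairpins of this kind are binding sites of iron regulatory proteins. They run 5′ to 3′ on the transcript strand in mouse GRCm38, with the 6 bases of the loop in capitals. The first lies at chr19:9982733-9982759 (+), the second at chr7:45459780-45459806 (-), the third at chr1:45925466-45925492 (-) and the Tfrc hairpins on chromosome 16 (+) at 32631220-32631246, 32631599-32631625, 32631664-32631690 and 32631711-32631737.
Fth1 5′ UTR: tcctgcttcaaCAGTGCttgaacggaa
Ftl1 5′ UTR: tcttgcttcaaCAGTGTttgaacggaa
Slc40a1 5′ UTR: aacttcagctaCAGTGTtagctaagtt
Tfrc 3′ UTR, hairpin A: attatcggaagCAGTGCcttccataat
Tfrc 3′ UTR, hairpin B: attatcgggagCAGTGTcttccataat
Tfrc 3′ UTR, hairpin C: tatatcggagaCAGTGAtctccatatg
Tfrc 3′ UTR, hairpin D: attatcgggaaCAGTGTttcccataat
The letters A to D give only the order of the Tfrc matches along the transcript and are not published hairpin names. Hairpins with another loop were not sought, so Tfrc may hold more. The other 6 genes had no match within a single exon of their UTRs. They lie at chr10:80047166-80056439 (Gpx4, +), chrX:142317993-142390535 (Acsl4, -), chr10:61715263-61739260 (Aifm2, +), chr8:75093621-75100589 (Hmox1, +), chr14:32159865-32179855 (Ncoa4, +) and chr1:74375195-74386062 (Slc11a1, +).

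The 3 libraries held 158551992 to 167222984 unique molecular identifiers (UMIs, each standing for 1 captured transcript) in 23072 to 25516 barcodes, and 59262 of 73281 barcodes passed the filters. Between 171 and 176 barcodes were shared by each pair of libraries. The shallowest barcode held 500 UMIs in Aoah-/- replicate 2 and WT replicate 3 but 1672 UMIs in Aoah-/- replicate 3. Of 36 clusters 27 could be named from marker genes, which gave 18 classes with at least 50 cells in every library. Cells left unnamed made up 15.6% of Aoah-/- replicate 2, 16.8% of Aoah-/- replicate 3 and 8.00% of WT replicate 3. They are not in the class rankings below. Among them was a cluster of 1512 cells, nearest to macrophages by markers, with 1410 cells from Aoah-/- replicate 2. Clustering did not use the 10 genes or the other iron genes described here. In all classes below a level is the summed UMIs of a gene per 1000000 UMIs of the class in that library (CPM), and values are given in the order Aoah-/- replicate 2, Aoah-/- replicate 3 and WT replicate 3. Aoah itself, the mutated gene, was at 13.3, 12.4 and 26.5 CPM in PT-like cells and at 4.16, 4.48 and 19.9 CPM in macrophage-like cells. It was thus lower in both libraries labelled Aoah-/-, but not absent.

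PT-like cells numbered 8053, 4855 and 9344 (37.7%, 24.7% and 51.3% of the kept cells), in 5 clusters with all 20 PT markers detected. Injured PT-like cells, a cluster of their own with 133 to 168 CPM of Havcr1 (kidney injury molecule 1, 0.793 to 1.70 CPM in the other PT-like cells), numbered 182, 369 and 115. In this cluster 9 of 10 injury markers and 9 of 20 PT markers were at least 2-fold above the median cluster. So were 3 of 10 fibroblast and pericyte markers, whose strongest members stood further above the median cluster than those of the PT list, and Tagln, 1 of them, was among the 10 leading genes. Clusters with other names held PT markers at that level too. There were 13 of 20 in a macrophage-like cluster, 12 in a fibroblast and pericyte-like one and 20 in the erythroid-like one. In the other macrophage-like cluster there were 0. The PT origin of the injured PT-like cells was not tested. Macrophage-like cells numbered 1671, 1455 and 1719.

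The genes that store iron were highest in phagocytes and in the PT. Fth1 was at 20701, 24152 and 15362 CPM in granulocyte-like cells, at 13902, 15959 and 13971 CPM in macrophage-like cells and at 10163, 10134 and 13023 CPM in PT-like cells. Granulocyte-like and macrophage-like ranges overlapped, whereas macrophage-like cells were above PT-like cells in every library and PT-like cells above the next class, plasmacytoid dendritic-like cells (8876 to 9339 CPM). Ftl1 kept nearly this order, with 7182, 8130 and 7058 CPM in macrophage-like, 7752, 8607 and 5769 CPM in granulocyte-like and 4408, 3874 and 5632 CPM in PT-like cells. Both chains together made up 2.11% to 3.28% of all UMIs of granulocyte-like cells, 2.10% to 2.41% of macrophage-like cells, 1.40% to 1.87% of PT-like cells and 0.625% to 0.750% of injured PT-like cells. By mean, Fth1 was lowest in principal-like cells (1616 to 2416 CPM) and next lowest in natural killer-like cells (1856 to 2206 CPM). Ftl1 was lowest by mean in natural killer-like cells (773 to 1053 CPM). Reads of ferritin pseudogenes can fall on these genes, so their absolute levels are uncertain.

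The genes of uptake and export differed in where they were highest. Tfrc was at 222, 261 and 214 CPM in distal convoluted tubule-like cells, the only class whose range did not overlap that of the next one (plasmacytoid dendritic-like cells, 71.3 to 112 CPM). It was lowest in macrophage-like cells (12.7, 15.1 and 14.3 CPM) and endothelial-like cells (9.66, 18.1 and 7.94 CPM). Slc40a1 was highest in granulocyte-like cells at 156, 125 and 130 CPM, again without overlap with the next class. Thick ascending limb-like cells followed with 51.7, 44.6 and 46.9 CPM and injured PT-like cells with 59.8, 39.1 and 32.3 CPM, and these ranges overlapped. Ncoa4 was low and flat: every pair of neighbours in its order overlapped (17 of 17), from 8.65 to 10.0 CPM in principal-like cells down to 2.56 to 4.51 CPM in B lymphocyte-like cells.

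Hmox1 and Slc11a1 marked phagocytes. Hmox1 was at 201, 250 and 194 CPM in macrophage-like cells and at 99.0, 136 and 101 CPM in granulocyte-like cells, and neither range overlapped the one below it. Slc11a1 was at 170, 170 and 170 CPM in granulocyte-like cells, at 148, 159 and 115 CPM in macrophage-like cells and at 16.4 to 31.6 CPM in dendritic-like cells. To compare shares of cells at equal depth, each cell with at least 1000 UMIs was thinned to 1000 UMIs, and shallower cells were left out. This left out no cell of Aoah-/- replicate 3 (lowest total 1672 UMIs) but many macrophage-like cells of WT replicate 3 (median 994 UMIs). A Slc11a1 UMI was then found in 16.0%, 15.1% and 15.1% of granulocyte-like cells and in 11.6%, 13.1% and 11.5% of macrophage-like cells. T lymphocyte-like cells, which should lack the gene, gave shares of 0.0971% to 0.25% in the 3 libraries (median depths 2503 to 2973 UMIs, against 1689 to 2209 in granulocyte-like and 3624 to 4467 in macrophage-like cells used). Before thinning, the share in macrophage-like cells was 26.0%, 45.4% and 17.9%, an order that followed the median depth of those cells (1576, 4467 and 994 UMIs). Hmox1 in dendritic-like cells stood apart in 1 library, with 13.3, 14.4 and 76.2 CPM from 28, 43 and 210 UMIs. The macrophage markers summed to 2078, 3203 and 6186 UMIs in those cells, which is 1.35, 1.34 and 3.39 Hmox1 UMIs per 100 marker UMIs. Macrophage-like cells had 1.51, 1.71 and 1.49 per 100, and no test of this difference was run.

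Of the ferroptosis genes, Gpx4 was highest in PT-like cells at 1284, 1277 and 1557 CPM and next in injured PT-like cells at 1081, 957 and 1284 CPM, with overlapping ranges. Dendritic-like cells had the lowest level, 299 to 357 CPM. Acsl4 was highest in intercalated-like cells (134, 133 and 117 CPM) and distal convoluted tubule-like cells (119, 105 and 94.1 CPM), which overlapped each other but not the next class. PT-like cells lay far below them at 20.4, 18.3 and 13.8 CPM. Aifm2 was low throughout, from 14.8 ± 2.89 CPM in principal-like cells (SD, n = 3) to 2.16 to 2.86 CPM in B lymphocyte-like cells, and 16 of its 17 neighbouring pairs overlapped. In plasmacytoid dendritic-like cells, the lowest class for Aifm2, it had no UMI in 2 of the 3 libraries.

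**Figure D1:**
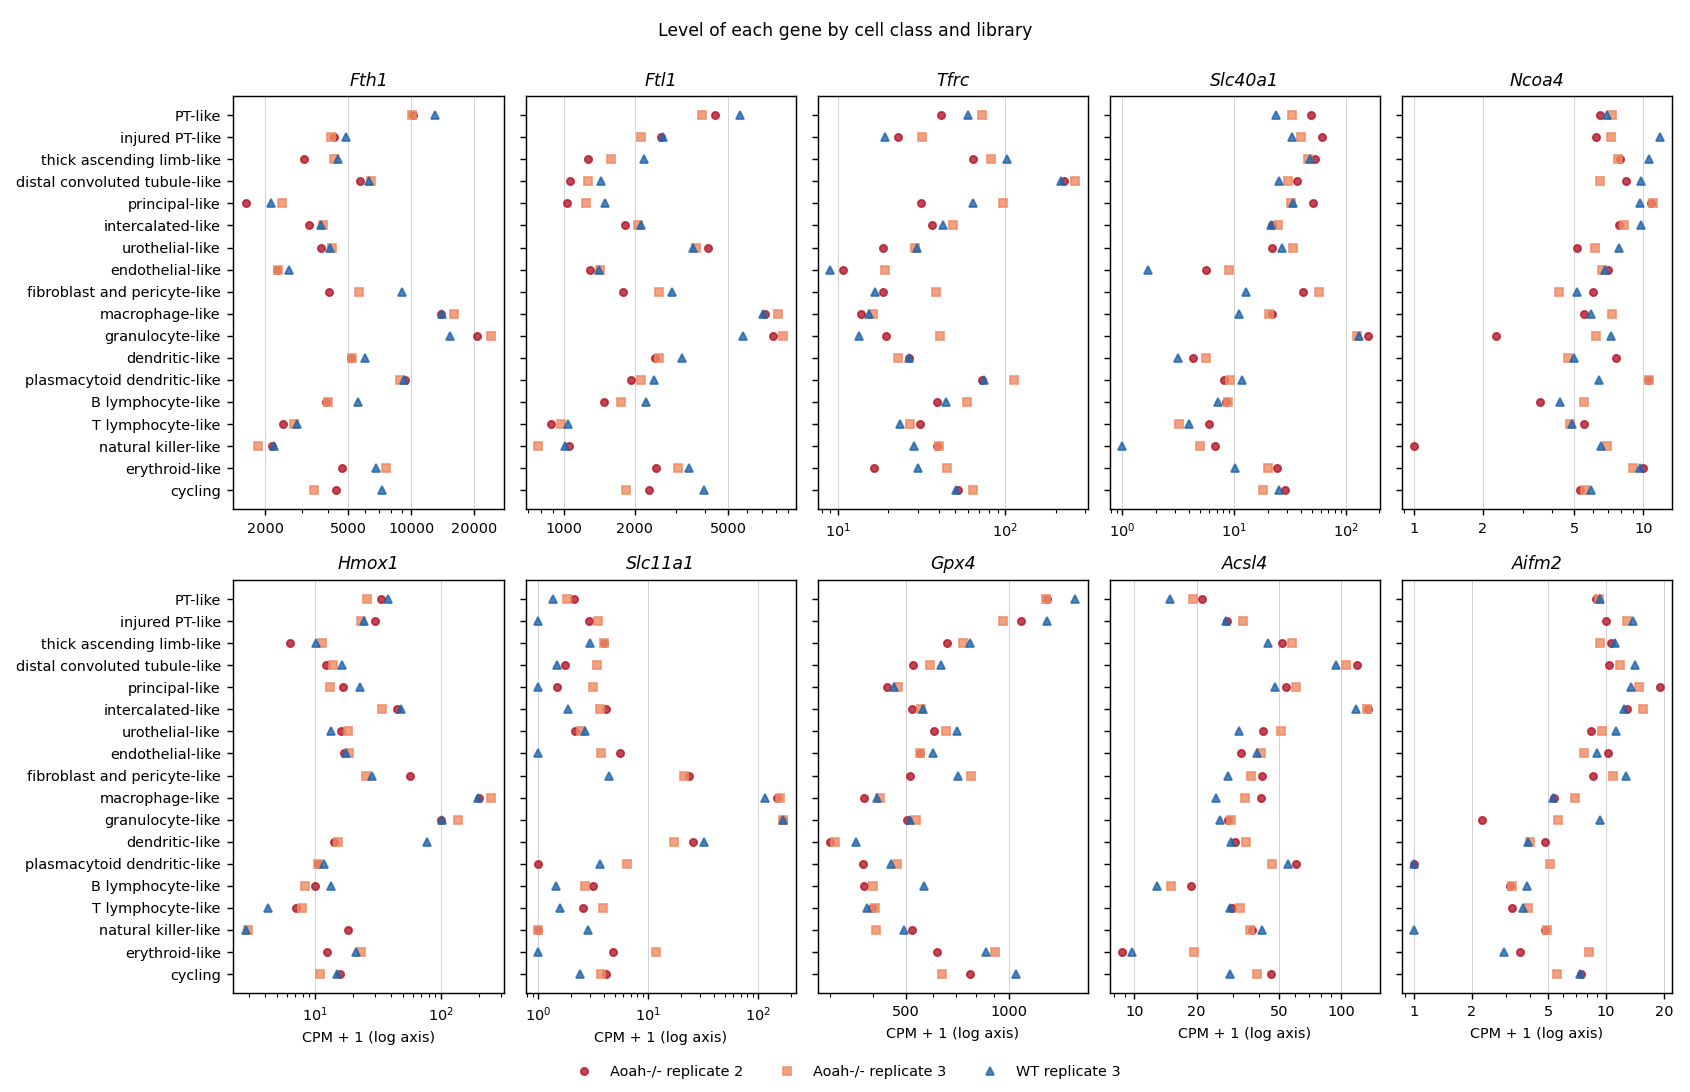
Level of each of the 10 genes (CPM with 1 added, log axis) in 18 cell classes, with 1 symbol for each library. Fth1 and Ftl1 lie furthest right in granulocyte-like and macrophage-like cells, Tfrc in distal convoluted tubule-like cells, Slc40a1 in granulocyte-like cells and Gpx4 in PT-like cells.

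The genes most like each of the 10 were sought among 6899 genes by Pearson correlation over the 18 classes, on log2 of the class mean CPM with 10 added. The added 10 CPM flattens Ncoa4 and Aifm2, whose highest class means were 9.46 and 14.8 CPM. The points share the same 3 libraries, so the values are descriptive. Slc11a1 was followed most closely by C5ar1 (r = 0.989), a complement receptor of myeloid cells, and Il1a (0.983), and Hmox1 by Fcgr4 (0.886), an Fc receptor, and by Slc11a1 (0.880). Fth1 was most like Ftl1 (0.848) and Creg1 (0.844), and Ftl1 most like Creg1 (0.885) and Fth1 (0.848). Gpx4 went with Abhd14a (0.931) and Mtfr1 (0.922), Aifm2 with Wls (0.947) and Zfyve9 (0.921), and Acsl4 with another acyl-CoA synthetase, Acsl5 (0.85), and with Fdft1 (0.835). Tfrc went with Atp5e (0.858) and Ndufa1 (0.813) and Slc40a1 with Igf1r (0.843) and Neat1 (0.841). The best match of Ncoa4 was the weakest (Ddr1 0.792, then Ivns1abp 0.778).

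Aoah-/- and WT cells were then compared within the PT-like class, since the study asked how loss of Aoah bears on tubular injury. Ferritin and Gpx4 transcripts were lower and Slc40a1 and Acsl4 transcripts higher in both Aoah-/- libraries than in the WT library, but no gene of the 10 passed the test over all genes. Fth1, at 10163 and 10134 against 13023 CPM, was at 77.9% of the WT level, and the Aoah-/- libraries differed from each other far less than from WT (log2 ratio -0.36, SD 0.003, n = 2 against 1). Ftl1, at 4408 and 3874 against 5632 CPM, was at 73.5% (log2 ratio -0.44). Gpx4 was at 82.3% of the WT level (log2 ratio -0.28). Slc40a1 was at 47.9 and 32.1 against 22.9 CPM, or 1.72-fold with 1 CPM added, and the mean of the Aoah-/- libraries had an SD of 11.2 CPM (n = 2). Acsl4 was at 20.4 and 18.3 against 13.8 CPM, or 1.37-fold. Hmox1 was at 32.5 and 25.0 against 36.7 CPM. Tfrc lay on both sides of WT (40.4 and 71.4 against 58.4 CPM), and so did Ncoa4 (5.47 and 6.27 against 5.93 CPM), while Aifm2 (7.90 and 8.15 against 8.27 CPM) was nearly level.

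edgeR's quasi-likelihood test with Benjamini-Hochberg adjustment called 0 of the 10 genes in PT-like cells, beside 0.0354% of all 14115 genes tested. At an unadjusted p under 0.05 it found 6 of the 10, against 26.3% of all genes. DESeq2 called 2, Fth1 and Ftl1, both lower in Aoah-/- cells, beside 491 of all 12018 genes it tested. The edgeR adjusted p was 0.0877 for Fth1 (log2 fold change -0.36, SE 0.06), 0.108 for Ftl1 (-0.45, SE 0.10), 0.108 for Gpx4 (-0.29, SE 0.07), 0.110 for Acsl4 (0.48, SE 0.11) and 0.152 for Slc40a1 (0.81, SE 0.26). With cells of at most 20% mitochondrial UMIs Acsl4 was at 16.9 and 15.4 against 14.0 CPM, and its edgeR log2 fold change was 0.13 (SE 0.13, adjusted p = 0.611). Across 12 alternative settings the edgeR or DESeq2 adjusted p ran from 0.0295 to 0.273 for Fth1, called in 3, and from 0.0181 to 0.243 for Ftl1, called in 2. A second, descriptive rule counted a gene when each Aoah-/- library was at least 1.5-fold from WT in the same direction. None of the 6 genes with at least 20 CPM met it, and over all genes the share was 1.88% for higher and 0.859% for lower. With 1 WT mouse the spread among WT mice is unknown, and the test takes it to be that of the Aoah-/- pair. The test also draws each gene's spread toward a trend over all genes. That trend had a weight of 3.73 prior degrees of freedom here, beside 1 residual degree of freedom. The weight was 29.1 in injured PT-like and 11.07 in macrophage-like cells, so p-values there rest largely on the spread of other genes.

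The direction was the same in each of the 5 PT-like clusters, which differ in leading genes and in depth. Fth1 was lower in both Aoah-/- libraries than in WT in 5 of 5, for example at 15911 and 14741 against 20726 CPM in the cluster led by Kap and at 7616 and 7427 against 8388 CPM in the cluster of 4417 cells. Ftl1 and Gpx4 were lower in 5 of 5 as well, and Slc40a1 and Acsl4 higher in 5 of 5. Slc40a1 was at 57.0 and 42.9 against 34.4 CPM in the cluster led by Spp2 and Slc5a2, and at 23.9 and 16.2 against 13.1 CPM in that led by Kap. These clusters share the same 3 mice and are not replicates. Over the 18 classes, Acsl4 was higher in both Aoah-/- libraries in 14 and lower in 1, Slc40a1 higher in 11 and lower in 1, Ftl1 lower in 13 and higher in 3, and Fth1 and Gpx4 each lower in 10 and higher in 1. Ferritin was thus not lower throughout: in granulocyte-like cells both chains were above the WT level in both Aoah-/- libraries. Such counts over clusters or classes were not made for all genes, so they show nothing particular to these genes. A class can also hold different cells by genotype. Of the fibroblast and pericyte-like cells, 354 of 387 in WT came from the cluster led by Dcn and Pi16. In the Aoah-/- libraries 73 of 84 and 308 of 327 came from that led by Mgp. The directions of that class are in these counts. With 1 WT library, WT can also be the highest or lowest of the 3 by order alone.

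**Figure D2:**
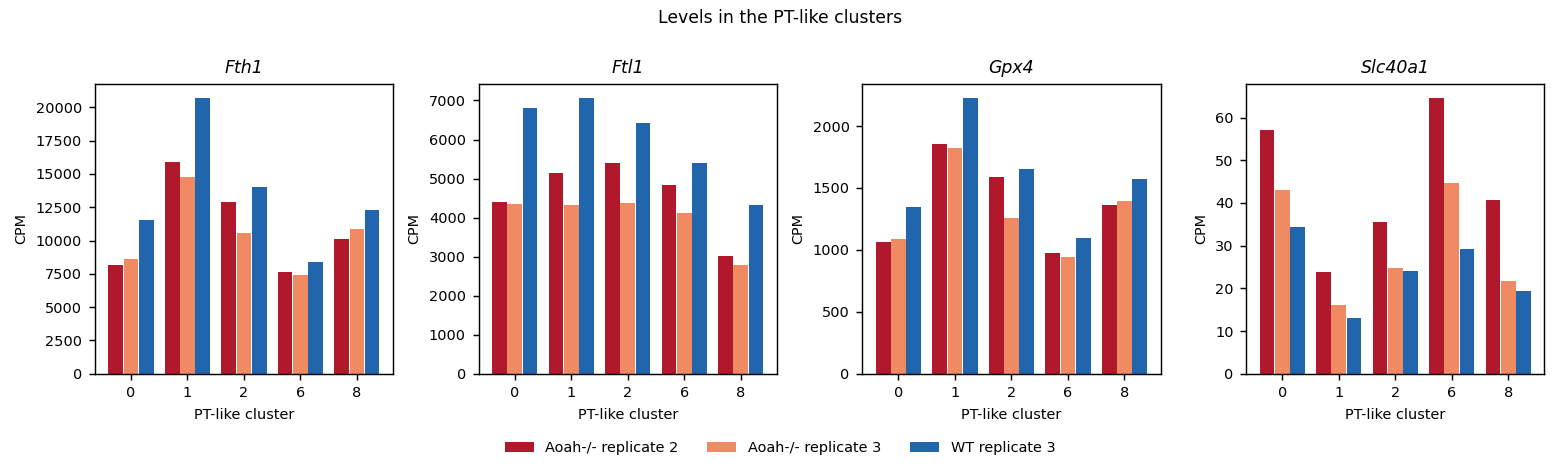
Levels (CPM, linear axes from 0) of Fth1, Ftl1, Gpx4 and Slc40a1 in the 5 PT-like clusters, with 1 bar for each library. In 5 of 5 clusters the WT bar is the highest for Fth1, Ftl1 and Gpx4 and the lowest for Slc40a1.

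Markers of other cells also moved between these libraries. In PT-like cells the 10 injury markers summed to 1033, 906 and 344 CPM and the 10 macrophage markers to 69.4, 58.9 and 31.2 CPM, with no marker of either list at 0. Granulocyte markers (103, 135 and 91.5 CPM) and monocyte markers (45.3, 45.2 and 22.5 CPM) were also higher in both Aoah-/- libraries. Erythroid markers (88.6, 306 and 318 CPM) and fibroblast and pericyte markers (1.95, 2.95 and 7.98 CPM) were lower in both. The part of all these markers in the results was not tested. Slc11a1, a phagocyte gene, was at 1.13, 0.840 and 0.369 CPM in PT-like cells (62, 41 and 27 UMIs). That was 1.63, 1.43 and 1.18 UMIs per 100 macrophage marker UMIs, beside 1.11, 1.09 and 0.880 in the macrophage-like cells themselves. For Slc40a1 the ratios were 69.1, 54.6 and 73.2 per 100 in PT-like cells and 0.157, 0.134 and 0.0772 in macrophage-like cells. After thinning to 1000 UMIs, 4.12% (95% exact interval 3.64 to 4.65), 2.64% (2.20 to 3.13) and 2.23% (1.91 to 2.59) of PT-like cells with at least 1000 UMIs held a Slc40a1 UMI. The intervals of Aoah-/- replicate 3 and WT overlapped. In T lymphocyte-like cells the share was 0.499%, 0.341% and 0.485%. Intervals cover counting error only, so their overlap is not a test between genotypes.

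In injured PT-like cells the same comparison had fewer cells behind it. Fth1 was at 4266 and 4112 against 4853 CPM, Gpx4 at 1081 and 957 against 1284 CPM and Ftl1 at 2582 and 2139 against 2642 CPM, each lower in both Aoah-/- libraries. Slc40a1 was at 59.8 and 39.1 against 32.3 CPM and Tfrc at 21.8 and 30.7 against 18.2 CPM, each higher in both. Neither of these directions held in every setting, nor did that of Ftl1. With cells of at most 20% mitochondrial UMIs Ftl1 was at 2706 and 2218 against 2635 CPM. Without cells holding immune marker UMIs Slc40a1 was at 48.4 and 30.8 against 32.7 CPM. At Leiden resolution 2 Tfrc was at 26.3 and 37.5 against 31.3 CPM. Acsl4 at 27.0 and 32.7 against 26.9 CPM and Hmox1 at 28.9 and 22.3 against 23.5 CPM were close to WT. Ncoa4 was at 5.22 and 6.20 against 10.8 CPM (11, 22 and 16 UMIs) and Aifm2 at 9.01 and 11.8 against 12.8 CPM. Slc11a1 had 4 and 9 UMIs in the Aoah-/- libraries and 0 in WT, which at this depth allows up to 2.02 CPM (3 counts). edgeR called 0 of 9 genes tested, beside 0.9% of all 11109 genes, and DESeq2 called 0 of 7, beside 16 of all 7541. At an unadjusted p under 0.05 edgeR found 1 of 9 (Slc40a1), against 9.5% of all genes. None of the 7 genes assessed was past 1.5-fold in both libraries, against 1.84% (higher) and 1.6% (lower) of all genes. For Slc40a1 the edgeR log2 fold change was 0.61 (SE 0.26, adjusted p = 0.426). Markers of other cells differed between the libraries here too: erythroid markers summed to 1217, 957 and 192 CPM and macrophage markers to 167, 128 and 63.2 CPM. All 10 macrophage markers were detected in the Aoah-/- libraries and 1 was at 0 in WT, and the part of these cells in the results was not tested.

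In macrophage-like cells Slc40a1 was the gene of the 10 that differed most. It was at 20.8 and 19.5 CPM in the Aoah-/- libraries against 10.0 CPM in WT (115, 170 and 47 UMIs), and was the only one of 7 genes assessed that was past 1.5-fold in both, beside 3.04% of all genes higher and 0.722% lower. The edgeR log2 fold change was 0.82 (SE 0.22, adjusted p = 0.0792), which did not pass, and over 10 alternatives the adjusted p ran from 0.00226 to 0.194, with 4 calls. Its level lay at the minimum of 20 CPM for this rule, and without Aoah-/- replicate 2 it was not assessed. In the cluster of deeper cells Slc40a1 was at 21.2 and 19.9 against 11.02 CPM and in that of shallow cells at 18.8 and 12.6 against 7.00 CPM. After thinning, however, 1.40% (95% exact interval 0.766 to 2.33), 1.65% (1.06 to 2.44) and 0.704% (0.259 to 1.53) of macrophage-like cells held a Slc40a1 UMI, and these intervals overlapped. The unthinned shares were 4.07%, 6.67% and 2.04%.

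Acsl4 was at 40.0 and 33.2 against 23.9 CPM in macrophage-like cells and Slc11a1 at 148 and 159 against 115 CPM, both higher in both Aoah-/- libraries. Their edgeR adjusted p was 0.265 (Acsl4) and 0.295 (Slc11a1). Fth1 (13902 and 15959 against 13971 CPM), Ftl1 (7182 and 8130 against 7058 CPM), Gpx4 (378 and 418 against 410 CPM) and Tfrc (12.7 and 15.1 against 14.3 CPM) lay near or on both sides of WT. The median log2 ratio of all genes assessed was 0.15 in this class, and the sign of Fth1 and Ftl1 depended on the scaling. edgeR called 0 of 10, beside 1.94% of all 11731 genes, and DESeq2 called 0 of 5, beside 64 of all 839. At an unadjusted p under 0.05 edgeR found 3 of 10, against 16.6% of all genes. By cells, the WT macrophage-like class was made up mainly of the shallow cluster (1105 of 1719 cells, median 756 UMIs). That of Aoah-/- replicate 3 was mainly of the deeper one (1287 of 1455 cells, median 4604 UMIs). By UMIs, which set the weight in a CPM, the deeper cluster was the larger part in both. It held 3537758 of 4681004 UMIs in WT and 8237342 of 8713209 in Aoah-/- replicate 3. Hmox1 was at 232, 264 and 246 CPM in the deeper cluster and at 31.7, 10.5 and 31.5 CPM in the shallow one. In this class PT markers summed to 7274, 7587 and 9341 CPM, granulocyte markers to 165, 201 and 731 CPM and erythroid markers to 183, 1041 and 2413 CPM. Other marker sums were higher in both Aoah-/- libraries. Among them were thick ascending limb markers (334, 363 and 137 CPM), injury markers (1057, 1575.5 and 711 CPM) and T lymphocyte markers (75.3, 85.4 and 28.4 CPM). The part of all these markers in the values was not tested.

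**Figure D3:**
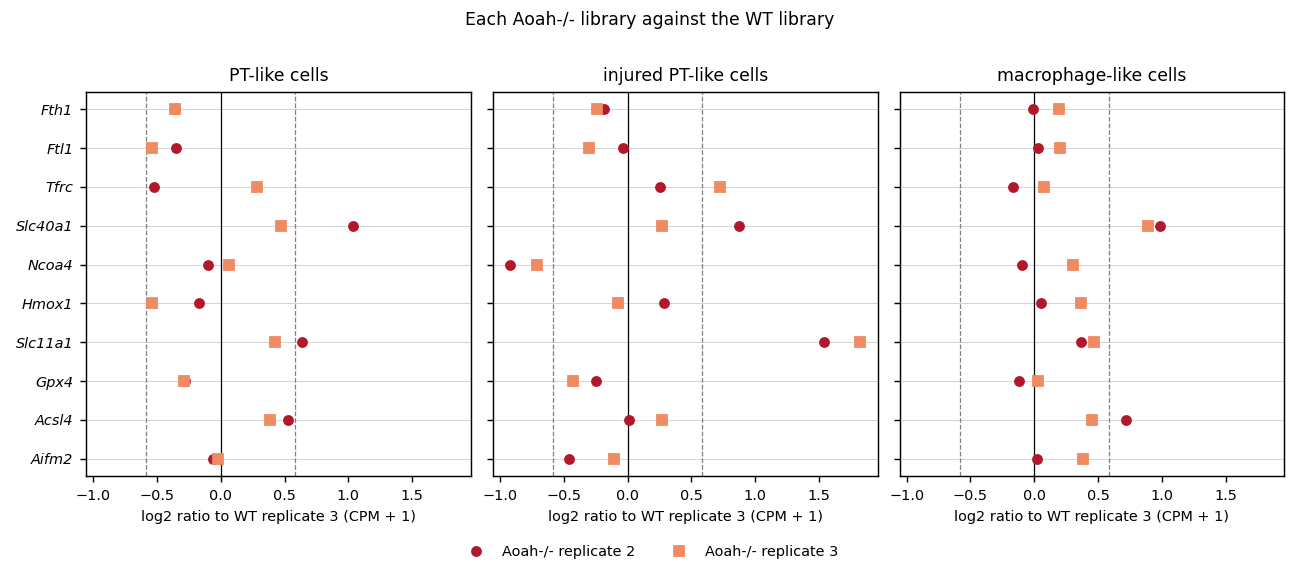
Log2 ratio of each Aoah-/- library to the WT library (CPM with 1 added) for the 10 genes in PT-like, injured PT-like and macrophage-like cells, with dashed lines at 1.5-fold. In PT-like cells Fth1, Ftl1 and Gpx4 lie left of 0 and Slc40a1 and Acsl4 right of it in both libraries, and in macrophage-like cells Slc40a1 alone has both points past the line.

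The other genes of these pathways were taken from the same test. The lists covered uptake, export, iron chaperones and sensors, haem turnover, mitochondrial iron, ferroptosis defence and lipid peroxidation. In PT-like cells edgeR called 0 of 65 genes tested, in injured PT-like cells 1 of 60 (lower) and in macrophage-like cells 1 of 62 (higher). Over all genes the shares called were 0.0354%, 0.9% and 1.94%, so these counts are not particular to the pathways. Both calls were in the uptake list, where 7 and 9 genes were tested. Lcn2, whose product NGAL binds iron-carrying siderophores and is a marker of tubular injury, was at 47.0 and 34.9 against 113 CPM in injured PT-like cells (log2 fold change -1.46, SE 0.19, edgeR adjusted p = 1.06e-05). It is also 1 of the 10 markers that named the class. In PT-like cells Lcn2 was at 3.28 and 5.49 against 1.24 CPM (log2 fold change 1.81, SE 0.37, edgeR adjusted p = 0.104) and in macrophage-like cells at 14.3 and 18.1 against 9.61 CPM (0.59, SE 0.24, edgeR adjusted p = 0.240). In injured PT-like cells, when cells with any UMI of 9 immune marker genes were left out, 67, 132 and 77 cells remained and the direction turned (log2 fold change 0.92, edgeR adjusted p = 0.890), and by DESeq2 the adjusted p was 0.188. Hp, haptoglobin, which binds free haemoglobin, was at 0, 7.32 and 22.2 CPM in the same cells (edgeR adjusted p = 0.0525). Lrp1, a scavenger receptor that takes up haem bound to haemopexin, was higher in macrophage-like cells at 91.7 and 94.2 against 47.4 CPM (log2 fold change 0.80, SE 0.12, edgeR adjusted p = 0.00659). It was called in 9 of 10 alternatives and missed the threshold when cells were limited to 20% mitochondrial UMIs (0.70, edgeR adjusted p = 0.0698).

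Injured PT-like cells were last set beside the other PT-like cells of the same library, with no test, because the classes come from clustering the same cells. Both ferritin chains and Tfrc were lower in the injured cells of every mouse. Fth1 was at 4266, 4112 and 4853 CPM in injured against 10163, 10134 and 13023 CPM in other PT-like cells, a log2 ratio of -1.33 ± 0.09 (SD, n = 3), or 0.399-fold. Ftl1 had a log2 ratio of -0.91 ± 0.17 (0.533-fold) and Tfrc of -1.23 ± 0.39 (0.427-fold). These 3 of the 7 genes assessed were lower by at least 1.5-fold in all 3 libraries, beside 9.56% of all genes. No gene of the 10 was higher by that rule, beside 35.3% of all genes, whose median log2 ratio was 0.48. Acsl4 came nearest (0.39, 0.80 and 0.91 on the log2 scale). Slc40a1 was higher by 0.36 ± 0.11, and Gpx4 was lower by a log2 ratio of -0.31 ± 0.09. These ratios depended on how the injured cluster was drawn. At Leiden resolution 2 Fth1 was at 5855, 5322 and 8381 CPM in injured against 9889, 9935 and 12093 CPM in other PT-like cells. The gap was thus smaller. Gpx4 in WT was then higher in injured cells, at 1852 against 1474 CPM. Fibroblast and pericyte markers summed to 567, 491 and 399 CPM in injured against 1.95, 2.95 and 7.98 CPM in other PT-like cells, and PT markers to 12008, 12382 and 15816 against 58504, 70598 and 69809 CPM. PT markers summed to 5997, 16450 and 11101 CPM in thick ascending limb-like and to 6315, 9479 and 8859 CPM in distal convoluted tubule-like cells. The part of fibroblast, pericyte and PT markers in these ratios was not tested. Both ferritin chains together held 0.685%, 0.625% and 0.750% of the UMIs of injured cells against 1.46%, 1.40% and 1.87% of other PT-like cells.

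**Figure D4:**
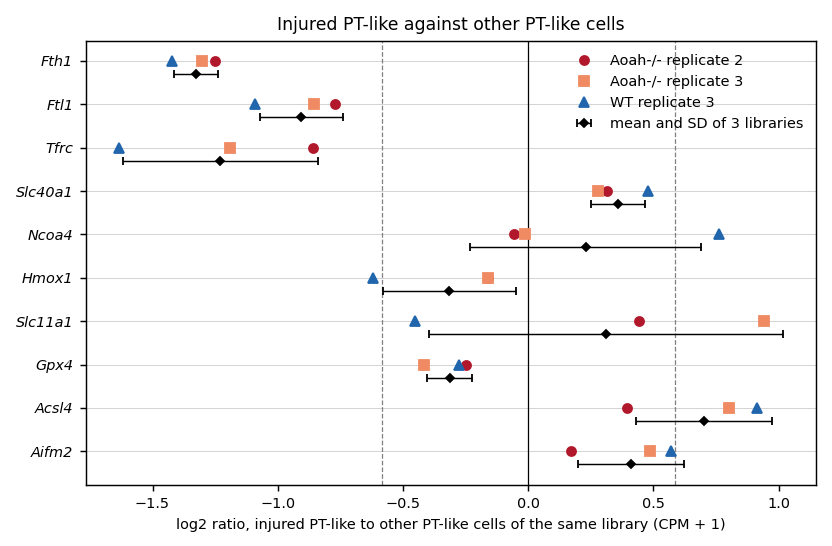
Log2 ratio of injured PT-like to other PT-like cells of the same library (CPM with 1 added) for the 10 genes, with the mean and SD of the 3 libraries as a diamond and bar and dashed lines at 1.5-fold. Fth1, Ftl1 and Tfrc lie left of the lower line in all 3 libraries, at means of -1.33, -0.91 and -1.23.

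Among the other pathway genes, the export list was led by Cp, ceruloplasmin, the ferroxidase that oxidises iron as it leaves through ferroportin. It was at 609, 643 and 566 CPM in injured cells against 3.01, 4.01 and 1.79 CPM in other PT-like cells, a log2 ratio of 7.31 ± 0.33 (SD, n = 3). Slc1a5, a glutamine carrier, was higher by 3.20 ± 0.46 and Nfe2l2, which encodes the antioxidant regulator NRF2, by 0.92 ± 0.12. Lcn2, a marker of the class, was higher by 3.87 ± 1.63. Of the ferroptosis defence list, 4 genes were lower by the rule. The log2 ratios were -1.70 ± 0.69 for Nqo1, a quinone reductase, -1.28 ± 0.14 for Gsr, glutathione reductase, and -1.17 ± 0.14 for Gclc, the catalytic subunit that begins glutathione synthesis, and the remaining gene was Gclm. Others of the list, such as Gss (-0.41), Txnrd1 (-0.16) and Prdx6 (-0.11), did not meet the rule. Cpox of haem synthesis (-1.32 ± 0.05) and Acsl1, an acyl-CoA synthetase (-1.11 ± 0.16), were lower too. By list, 1 of 3 uptake genes assessed was higher (Lcn2) and 0 were lower, with Slc39a14 at 0.61 and Slc11a2, an importer of divalent metal, at -0.35 on the log2 scale. Of the export list 1 gene, Cp, was assessed and was higher. By the same rule 1 of 13 ferroptosis defence genes assessed was higher and 4 were lower, 1 of 8 lipid peroxidation genes was higher and 4 were lower, 0 of 10 haem genes were higher and 2 were lower, 0 of 5 mitochondrial genes were higher and 1 was lower, and none of 5 chaperones and sensors differed by the rule. Those shares stand beside 35.3% of all genes higher and 9.56% lower.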

How the data were processed

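The files deposited by the authors hold raw UMI counts (genes by barcodes, not normalized), 1 matrix for each library. The submitters' processing notes name Cell Ranger 3.1.0, STAR, Seurat 4.2.0 and the mouse build mm10, whereas the matrix headers name Cell Ranger 6.1.2. The 10 genes and all lists were chosen with earlier results of these data known.

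Barcodes were kept if they held 200 genes or more and no more than 50% of their UMIs were mitochondrial. Cells were clustered in scanpy 1.11.5 (Python 3.11.15; 2000 variable genes without the 99 listed iron and antigen presentation genes, 50 principal components, 15 neighbours, Leiden resolution 1), and clusters were named from fixed marker lists. Scrublet called 544, 0 and 201 cells, so doublets were kept and the 10% highest scores removed as an alternative. Sums of UMIs over each class of a library were tested with edgeR 4.0.16 (quasi-likelihood, TMM, filterByExpr, R 4.3.3, 1 residual degree of freedom) over all genes, called at an adjusted p under 0.05. The SE printed beside an edgeR log2 fold change is not an output of edgeR. It was taken as the absolute log2 fold change over the square root of the test's F statistic. DESeq2 1.42.0 was an alternative. Descriptive folds used CPM with 1 added, at least 20 CPM in a group mean and 1.5-fold in each library. Each gene of the 10 was named, with its 2 most similar genes (at least 50 CPM in a class). Of the pathway lists up to 3 genes per direction and class were named (5 for injured against other PT-like cells, by size of the log2 ratio), first those called and then those past 1.5-fold. Shares have Clopper-Pearson 95% intervals. Tf, Flvcr1 and Flvcr2 were not analysed here. UTRs were those of GENCODE M21.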

Additional observations from a re-analysis of the deposited data

How the results depend on the processing

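No paired analysis was possible because the genotypes share only replicate number 3. Leaving out 1 Aoah-/- library leaves 1 against 1, so only values are given: the genes past 1.5-fold numbered 0 to 1 in PT-like cells (1, Slc40a1, without Aoah-/- replicate 3), 1 and 1 in injured PT-like cells (Tfrc without replicate 2, Slc40a1 without replicate 3), 0 to 2 in macrophage-like cells (0 without replicate 2, where Slc40a1 at 19.5 CPM fell under the minimum of 20 CPM, and Acsl4 and Slc40a1 without replicate 3) and 3 to 4 for injured against other PT-like cells. In injured PT-like cells the number was 2 with no minimum level (Slc11a1 higher, Ncoa4 lower) and 1 at Leiden resolution 2 (Gpx4 lower), and in macrophage-like cells 0 without the 10% highest Scrublet scores (Slc40a1 at 18.3 and 19.8 against 8.48 CPM, also under the minimum). Genes of the 10 called in PT-like cells numbered 2 with no filter on low counts, 2 by DESeq2 (Fth1 and Ftl1, lower) and 1 with at least 500 genes per cell (Fth1). The same settings called 814 of 19027, 491 of 12018 and 456 of 14040 genes tested. In macrophage-like cells the genes of the 10 called numbered 3 with library size only (Slc40a1, Slc11a1 and Acsl4, higher), 1 with no filter, 1 in cells of at least 1672 UMIs and 1 at Leiden resolution 2. There the same settings called 915 of 11731, 751 of 16766, 497 of 11457 and 355 of 12056 genes tested. The cause of these shifts was not tested. Over all genes the calls ran from 0 to 814 (5 as reported) in PT-like, 0 to 176 (100) in injured PT-like and 31 to 915 (227) in macrophage-like cells. Lcn2 in injured PT-like cells reversed to 0.92 without cells holding immune marker UMIs. For 8 of the 10 genes the class with the highest share of cells was that with the highest CPM, and for 2 without thinning. Leaving out the shallow PT-like cluster or the shallow macrophage-like cluster was tried after seeing the data. With 30 principal components no cluster could be named injured PT-like. In PT-like cells the log2 ratios of Fth1, Ftl1, Gpx4, Acsl4, Slc40a1, Hmox1 and Slc11a1 kept their sign in all 12 settings, but that of Acsl4 ran from 0.19 to 0.53. Depth limits Ncoa4, Aifm2 and, outside phagocytes, Slc11a1.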
